A study of Homo sapiens with 18 samples.

Results

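Transcripts of 10 secreted signalling proteins were followed in U87MG, a long-established cell line from a human glioblastoma, after treatment with Erastin. These were the neutrophil chemokine genes CXCL8, CXCL1, CXCL2, CXCL3 and CXCL5, the IL-6 family genes IL6, IL11 and LIF, and the IL-1 family genes IL1A and IL1B. They were chosen by name from these families, with the differences between the control and Erastin libraries already known, so their differences are given as a description with no p-value, and their calls only as counts beside those of all genes. They are 10 of the 58302 genes in the count table, and all 10 had enough reads to enter the fit of 16751 genes. RNA-seq was performed on 2 libraries of control cells in normal growth conditions and 2 libraries of cells given 10 μM Erastin for 72 h, which the labels call biological replicates. Erastin blocks system Xc-, the cystine importer, and leads to ferroptosis, an iron-dependent form of cell death. All 4 libraries came from the same cell line in serum-containing medium, and the labels name no vehicle for the control cells.

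The chemokines CXCL8, CXCL1, CXCL2, CXCL3 and CXCL5 attract neutrophils through the receptors CXCR1 and CXCR2. IL6, IL11 and LIF bind receptors that share the subunit IL6ST and signal through JAK kinases and STAT3, and glioblastoma cells are known to secrete IL6 and CXCL8. IL1A and IL1B bind IL1R1, which activates NF-κB, a transcription factor that acts on the promoters of many cytokine genes. The messages of these genes are generally short-lived, because AU-rich elements in their tails are bound by decay proteins.

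The counts on genes totalled between 29412656 and 31513519 per library. Expression is given as CPM, the count divided by the TMM-scaled library size, whose factors lay between 0.971 and 1.02. Genes were called higher or lower where the log2 fold change reached 1 in size and the adjusted p of edgeR's quasi-likelihood test was under 0.05. The levels of glial markers were described for the labelled cell line, and they do not test its identity. The 12 glioma and glial markers summed to between 4356 and 4391 CPM in control cells and to between 2920.4 and 3126 CPM in Erastin-treated cells, most of it from VIM and CD44. NES, CHI3L1 and SOX9 were called lower in Erastin-treated cells, with log2 fold changes of −3.62, −2.26 and −1.26, and EGFR was measured at 195 and 208 CPM. Of the astrocyte genes, GFAP had between 41 and 81 counts, AQP4 had 0 in all 4 libraries, and SOX2 and S100B had at most 6 and 2 counts. OLIG2 had between 59 and 88 counts and PDGFRA between 6 and 18. Of 7 neutrophil markers, 5 had no count in any library, and their summed expression was between 0.0981 and 0.129 CPM in control cells and between 0.0669 and 0.414 CPM in Erastin-treated cells. Of 10 myeloid and microglial markers, 7 stayed under 10 counts in every library, AIF1, TYROBP, C1QA and C1QB were at 0, and the summed expression was between 8.47 and 8.93 CPM in control cells and between 5.68 and 6.21 CPM in Erastin-treated cells. Most of this sum came from CSF1R, with means of 8.36 CPM in control cells and 5.27 CPM in Erastin-treated cells. ITGAM went the other way, with 4 and 0 counts in control cells against 9 and 15. Among lymphocyte markers, CD3D and CD3E were at 0, and the sum ranged from 2.39 to 2.54 CPM and from 0.602 to 0.668 CPM. The 6 endothelial markers summed to between 19.4 and 23.3 CPM and to between 7.82 and 9.68 CPM, with CLDN5 at 0. The glial, myeloid, lymphocyte and endothelial sums were all lower in Erastin-treated cells, with CD2, PECAM1 and TEK also called lower and VWF, at most 32 counts, called higher, and their part in the results was not tested. In bulk RNA, a change in the share of cells that express a gene cannot be told apart from a change in RNA per cell.

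CXCL8 (ENSG00000169429, chr4:73740506-73743716, plus strand) encodes interleukin-8, the main neutrophil attractant of this group. It had 3329 and 3410 counts in control cells against 20667 and 21395 counts after Erastin. In CPM these were 108.9 and 109.8 against 691 and 681. Both Erastin libraries lay far above both control libraries, and the replicates of each group were close together. With 2 libraries against 2, full separation of any gene gives no exact two-sided permutation p below 0.333. The log2 fold change was 2.65 (standard error 0.0657), a 6.27-fold higher level. Ranked by level per length (FPKM) among the 29593 genes with a count, CXCL8 stood at 794 and 758 in the control libraries and at 63 and 64 in the Erastin libraries. CXCL8 held 42.9% and 41.8% of the FPKM summed over the 10 genes in control cells, and 66.0% and 66.5% in Erastin-treated cells.

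CXCL2 and CXCL3 encode close relatives of CXCL1 that act on CXCR2. CXCL2 (ENSG00000081041, chr4:74097035-74099293, minus strand) had 525 and 684 counts in control cells against 1930 and 1914 after Erastin, and its log2 fold change was 1.68 (standard error 0.118). CXCL3 (ENSG00000163734, chr4:74036589-74038807, minus strand) had 167 and 180 counts against 360 and 388, a log2 fold change of 1.11 (standard error 0.163). For both genes the Erastin libraries lay above the control libraries. CXCL2 differed more between its control replicates, at 17.2 and 22.0 CPM, than CXCL3, at 5.46 and 5.79 CPM.

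CXCL1 and CXCL5 were close to the limit of detection. CXCL1 (ENSG00000163739, chr4:73869393-73871242, plus strand) had 2 and 0 counts in control cells and 10 and 10 in Erastin-treated cells. The ratio of the scaled counts was 10.05, with an exact 95% interval of 2.44 to 88.7 that covers counting error only. With the counts halved to read pairs, which leaves 1 pair against 10, the interval widened to 1.43 to 436. The fitted log2 fold change of 3.18 (standard error 1.20) is no firmer than these few reads, and it was 6.35 without control replicate 1 and 2.24 without control replicate 2. Without either Erastin library it had too few reads to be fitted. CXCL5 (ENSG00000163735, chr4:73995642-73998779, minus strand), another CXCR2 ligand, was the gene of the 10 with a lower level in Erastin-treated cells. It had 32 and 34 counts in control cells against 4 and 12 after Erastin, a log2 fold change of −2.03 (standard error 0.632) that was −2.96 without Erastin replicate 2 and −1.48 without Erastin replicate 1. The Erastin libraries did not overlap the control libraries for either gene, but they held at most 12 counts each.

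**Figure D1:**
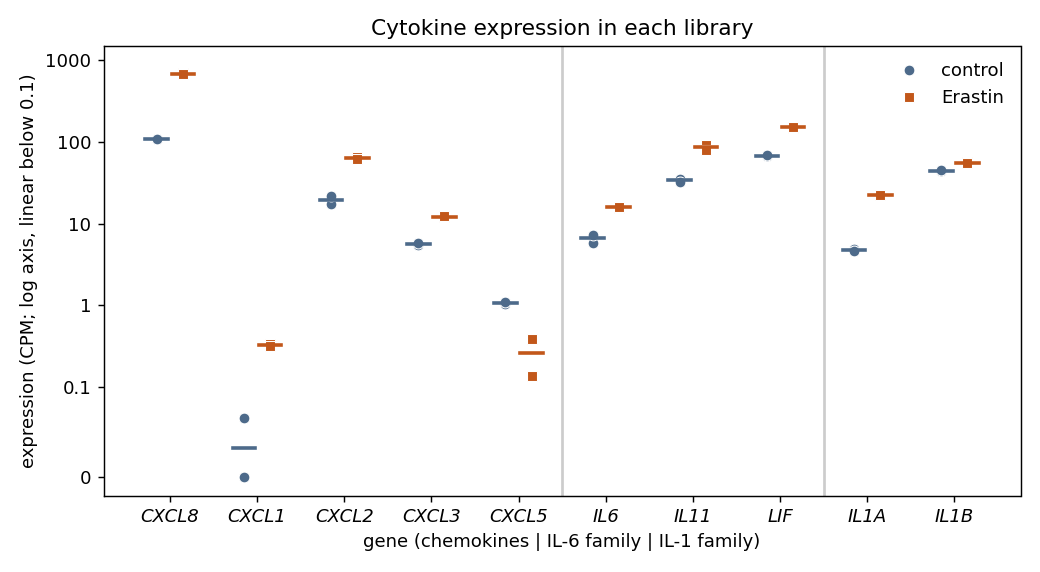
Expression in CPM of each of the 10 genes in the 2 control libraries (circles) and the 2 Erastin libraries (squares), with the mean of each group as a bar, on a log axis that is linear below 0.1. CXCL8 stands highest in both groups, at 108.9 and 109.8 CPM against 691 and 681 CPM, and CXCL5 is the gene whose Erastin libraries lie below its control libraries.

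The chemokine promoters are shown because all 5 hold the same κB letters while the genes differed in level and in direction. RefSeq starts were available in the promoter table for 9 of the 10 genes, LIF being the other. Each stretch runs from 180 bases before to 20 bases after the RefSeq start (GRCh38.p14), 5′ to 3′ on the strand of the gene, and capitals mark matches to a κB motif (GGANNTTCC) or an AP-1 motif (TGANTCA) on either strand. The stretches lie at chr4:73740389-73740588 for CXCL8, chr4:74099176-74099375 for CXCL2, chr4:74038670-74038869 for CXCL3, chr4:73869213-73869412 for CXCL1 and chr4:73998658-73998857 for CXCL5.
CXCL8: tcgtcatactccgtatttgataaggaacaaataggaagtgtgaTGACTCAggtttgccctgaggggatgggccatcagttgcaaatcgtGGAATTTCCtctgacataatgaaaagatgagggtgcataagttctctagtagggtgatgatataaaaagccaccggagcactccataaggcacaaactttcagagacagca
CXCL2: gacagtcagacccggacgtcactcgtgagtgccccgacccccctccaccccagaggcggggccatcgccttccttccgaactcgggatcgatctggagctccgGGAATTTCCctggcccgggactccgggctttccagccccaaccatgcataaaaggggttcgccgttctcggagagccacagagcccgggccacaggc
CXCL3: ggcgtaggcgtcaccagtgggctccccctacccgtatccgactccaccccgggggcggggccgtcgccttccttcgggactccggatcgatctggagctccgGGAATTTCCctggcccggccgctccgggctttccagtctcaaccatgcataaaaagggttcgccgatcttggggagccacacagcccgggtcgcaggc
CXCL1: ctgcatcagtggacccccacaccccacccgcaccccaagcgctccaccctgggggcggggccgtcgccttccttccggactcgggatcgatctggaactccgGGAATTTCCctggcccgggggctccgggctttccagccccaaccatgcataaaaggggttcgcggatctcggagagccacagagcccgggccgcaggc
CXCL5: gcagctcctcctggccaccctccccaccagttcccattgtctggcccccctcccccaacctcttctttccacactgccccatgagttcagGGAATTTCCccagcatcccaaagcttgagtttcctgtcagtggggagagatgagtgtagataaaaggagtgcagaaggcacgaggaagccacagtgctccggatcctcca

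All 5 chemokine promoters held the same κB match, GGAATTTCC. It began 91 bases before the start in CXCL8, 78 in CXCL1, 77 in CXCL2, 78 in CXCL3 and 90 in CXCL5. The letters of this match fit the motif in both orientations at one place and were counted once. They were thus shared by CXCL8, with the highest level, by CXCL1, with at most 10 counts in any library, and by CXCL5, whose level was lower in Erastin-treated cells. An AP-1 match stood 137 bases before the start of CXCL8 and in none of the other 4 windows. Compared position by position without gaps, the stretches of CXCL1 and CXCL3 shared 77.5% of their 200 bases, those of CXCL1 and CXCL2 61.5%, and that of CXCL8 between 27% and 29.5% with each of the others.

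IL6 is printed beside them as the cytokine with a κB match of other letters, from chr7:22727020-22727219 on the plus strand, and IL11 as one with an AP-1 match alone, from chr19:55370444-55370643 on the minus strand.
IL6: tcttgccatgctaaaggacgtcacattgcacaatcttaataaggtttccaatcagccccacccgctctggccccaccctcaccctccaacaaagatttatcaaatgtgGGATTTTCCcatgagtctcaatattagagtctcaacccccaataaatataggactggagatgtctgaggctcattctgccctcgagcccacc
IL11: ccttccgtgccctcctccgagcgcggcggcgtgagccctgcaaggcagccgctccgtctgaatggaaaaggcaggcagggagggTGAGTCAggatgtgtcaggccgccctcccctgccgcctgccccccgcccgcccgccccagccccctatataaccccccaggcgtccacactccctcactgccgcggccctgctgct

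The κB match of IL6, GGATTTTCC, began 72 bases before its start, and the AP-1 match of IL11 began 96 bases before its start. In the whole window of 300 bases, 6 of the 9 genes held a κB match and 3 (CXCL8, IL11 and IL1A) an AP-1 match. Of all 35116 promoters in the table, 4.57% held the κB motif and 7.71% the AP-1 motif. The C/EBP-ATF response element, searched as TGATGNAA, was in none of the 9 windows and in 3.62% of all promoters, and TATAAA was in 2 of the 9 (CXCL8 and IL1A) and in 11.5% of all. A match describes letters only, and no match says only that these letters are not in this window.

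IL6 (ENSG00000136244, chr7:22725884-22732002, plus strand) encodes interleukin-6, the founding cytokine of its family. It had 179 and 226 counts in control cells against 469 and 504 after Erastin, or 5.85 and 7.28 CPM against 15.7 and 16.0 CPM. The log2 fold change was 1.27 (standard error 0.160). The antisense gene IL6-AS1 overlaps 428 exonic bases of IL6 and had between 9 and 17 counts per library, so reads on the shared bases, which were not counted for either gene, cannot be assigned.

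IL11 (ENSG00000095752, chr19:55364389-55370463, minus strand), a cytokine linked to stroma and bone, had 1083 and 999 counts in control cells and 2756 and 2494 in Erastin-treated cells. Its log2 fold change was 1.34 (standard error 0.0947). LIF (ENSG00000128342, chr22:30240447-30246851, minus strand), leukaemia inhibitory factor, had 2064 and 2130 counts against 4428 and 4806, a log2 fold change of 1.15 (standard error 0.0685). The 3 genes of this family thus differed by 2.21-fold to 2.54-fold, with every Erastin library above every control library. LIF is overlapped on the opposite strand by LIF-AS1 over 92 exonic bases and by LIF-AS2 over 175, and these had at most 6 and 103 counts per library.

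IL1A (ENSG00000115008, chr2:112773915-112784590, minus strand) encodes interleukin-1α, which is active as made and is released by dying cells. It had 149 and 142 counts in control cells against 671 and 699 after Erastin, a log2 fold change of 2.24 (standard error 0.142). IL1B (ENSG00000125538, chr2:112829751-112836903, minus strand) encodes interleukin-1β, which needs cleavage by caspase-1. It had 1331 and 1394 counts against 1677 and 1731, a log2 fold change of 0.33 (standard error 0.0813). The Erastin libraries lay above the control libraries for both genes, by 4.73-fold for IL1A and 1.26-fold for IL1B. Per length, IL1B stood at 14.3 FPKM and IL1A at 2.22 FPKM in control cells, and at 18.0 and 10.5 FPKM in Erastin-treated cells.

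Of the 10 genes, 8 met the thresholds as higher and 1, CXCL5, as lower, while IL1B changed by less than the fold threshold. Over all 16751 genes fitted, 6.24% were called higher and 9.34% lower. The genes were chosen with this comparison known, so nothing is read from their count, nor from groups of libraries that did not overlap. With any 1 library left out, CXCL1 either missed the thresholds or could not be fitted, and CXCL5 met them only without Erastin replicate 2. Their median log2 fold change was 1.31, beside −0.0026 over all fitted genes.

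**Figure D2:**
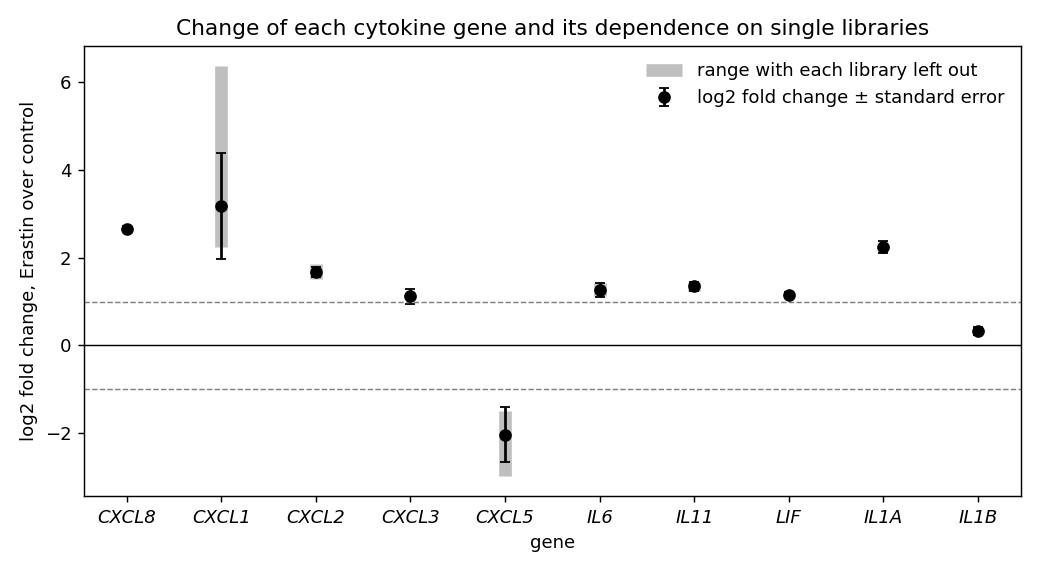
Log2 fold change of each gene, Erastin over control, with its standard error (black) and the range over the fits that each lack 1 of the 4 libraries (grey), as far as the gene could be fitted, with dashed lines at 1 and −1. The range is wide for CXCL1 (2.24 to 6.35) and CXCL5 (−2.96 to −1.48) and narrower for the other 8 genes. Among these it is narrowest for CXCL8 (2.64 to 2.66), while CXCL2 spans 1.51 to 1.86 and IL6 1.12 to 1.43.

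Levels of different genes were compared per length, as FPKM computed from the exon length in the count table. In control cells the order was CXCL8 at 48.1 ± 0.279 FPKM (SD, n = 2), LIF at 17.1 ± 0.190, IL1B at 14.3 ± 0.307, CXCL2 at 13.1 ± 2.29 and IL11 at 12.7 ± 0.863. IL6, CXCL3 and IL1A followed at 3.17, 2.54 and 2.22 FPKM, and CXCL5 and CXCL1 at 0.422 and 0.0252 FPKM. CXCL2 had no set place beside IL1B and IL11, since its libraries, at 11.4 and 14.7 FPKM, overlapped those of both. In Erastin-treated cells CXCL8 stood at 302 ± 3.12 FPKM (SD, n = 2) and CXCL2 followed at 41.8 ± 1.70, then LIF at 37.9 ± 0.876, IL11 at 32.1 ± 3.38 and IL1B at 18.0 ± 0.223. IL1A, at 10.5 FPKM, came above IL6 (7.67 FPKM) and CXCL3 (5.49 FPKM), and the libraries of neighbouring genes did not overlap in this group.

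**Figure D3:**
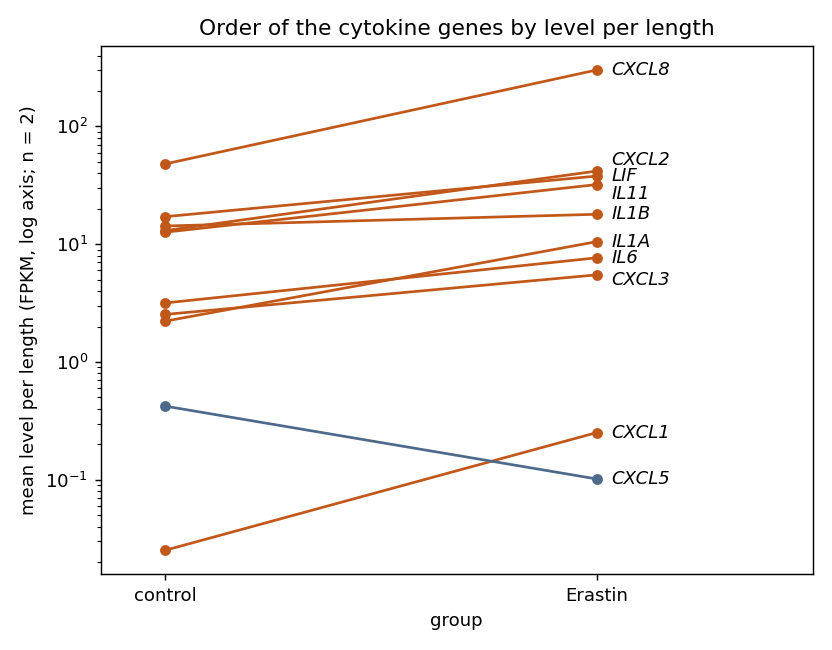
Mean level per length (FPKM, log axis, n = 2) of each gene in control and Erastin-treated cells, joined by a line, in orange where the Erastin mean is higher and in blue where it is lower. CXCL8 is at the top in both groups (48.1 and 302 FPKM), IL1A moves from below CXCL3 and IL6 to above them, and the lines of CXCL1 and CXCL5 cross.

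The 5 chemokine genes lie within 358.8 kb of chromosome 4 together with other genes of the same cluster. Of the 16 genes listed between the start of CXCL8 and the end of CXCL2, 9 had no count in any library and 5 could be fitted, namely the 5 chemokines above. CXCL6, PF4, PPBP and PF4V1, which encode further chemokines of the cluster, were at 0 in all 4 libraries, which allows up to 0.1003 CPM in the shallowest. Expression was thus highest at the ends, at CXCL8 and at CXCL2 with CXCL3, while CXCL1, at 128.9 kb from CXCL8, and CXCL5, at 255.1 kb, were low. Reads that match more than 1 place were not counted. Of the 31-base words of the reference transcript, 20.3% for CXCL2, 13.3% for CXCL1, 7.37% for CXCL3, 5.44% for CXCL5 and 0.496% for CXCL8 also occur elsewhere on the primary chromosomes, so the levels of CXCL1 and CXCL2 are the less certain ones.

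**Figure D4:**
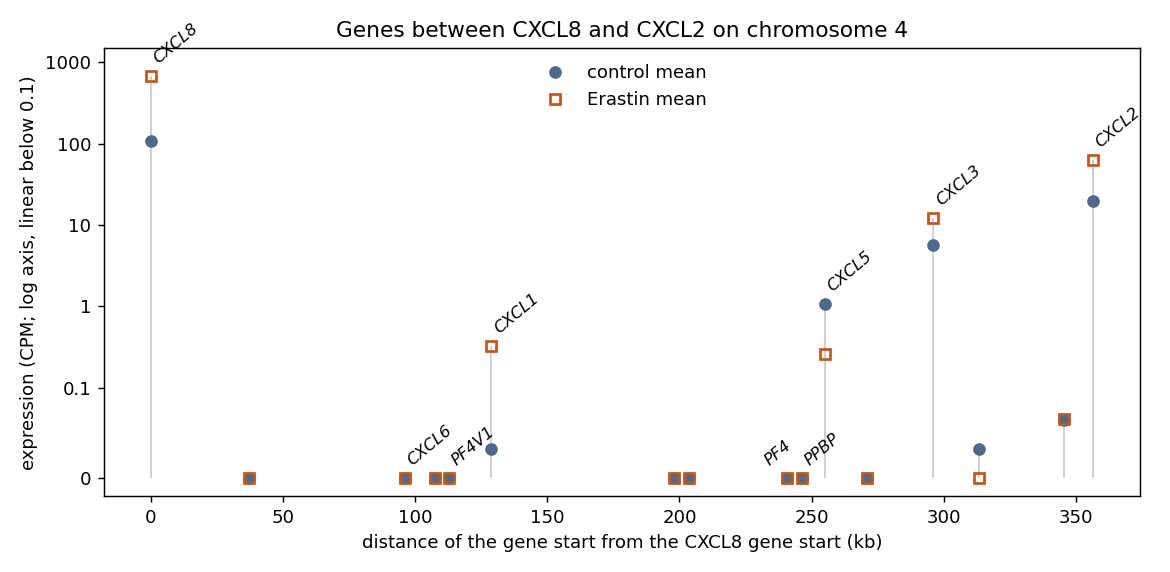
Mean expression in CPM (log axis, linear below 0.1) of the 16 genes from CXCL8 to CXCL2 in control (filled circles) and Erastin-treated cells (open squares), by distance of the gene start from that of CXCL8 in kb. Counts are concentrated at CXCL8, CXCL3 and CXCL2, with CXCL1 and CXCL5 near or below 1 CPM and the platelet chemokine genes at 0.

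The tails of the messages were searched for AU-rich elements, a feature examined after the values were seen. In the 3′ untranslated part of the reference transcript, the 10 genes had a median of 7.48 ATTTA pentamers per kb, against 1.55 over 19076 protein-coding genes. IL6 had the most, at 14.1 per kb, closely followed by CXCL2 at 14.0, and LIF had the fewest, at 2.19 per kb. The longer element TTATTTATT was present in 7 of the 10 tails and in 8.57% of all tails. It was absent from those of IL6, IL1A and CXCL5. CXCL8 had 9 pentamers, or 7.19 per kb, and IL1B, with the smallest difference in level, had 9.84 per kb.

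Genes around these cytokines were examined in lists of receptors, signalling proteins and regulators, and of these 149 genes 102 had enough reads to be tested. edgeR called 10 of them higher and 18 lower, which is 9.80% and 17.6% of those tested, beside 6.24% and 9.34% of all genes. Among 23 other chemokine genes, 14 had no count in any library and 3 could be tested. CCL2, which attracts monocytes, fell from 136 and 247 counts to 38 and 50, or −2.11 on the log2 scale (standard error 0.323, edgeR adjusted p = 2.11e-04). CXCL14 fell from 69 and 99 counts to 13 and 4, or −3.27 on the log2 scale (edgeR adjusted p = 3.09e-04), which was −4.38 without Erastin replicate 1 and −2.64 without Erastin replicate 2. CCL26 had 6 and 13 counts against 21 and 27 (adjusted p = 0.109 from edgeR). No gene of this list was called higher. CCL3, CCL4 and CCL5 were listed at 0, but 92.0%, 90.5% and 93.1% of their 31-base words also lie on alternate scaffolds of GRCh38, and reads matching several places were not counted. Whether the index used for alignment held those scaffolds is not given in the sources used here.

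Of 28 other cytokine genes, 14 could be tested, with 2 called higher, 4 lower and a median log2 fold change of −0.43. CLCF1, a partner cytokine of the IL-6 family, rose from 735 and 719 counts to 2288 and 2281, or 1.66 on the log2 scale (standard error 0.0863, edgeR adjusted p = 3.10e-08). IL36B, of the IL-1 family, rose by a log2 fold change of 1.28 (adjusted p = 4.41e-06). CSF3, the neutrophil growth factor G-CSF, was more abundant in CPM than CXCL8, at 737 ± 42.2 CPM (SD, n = 2) before and 1115 ± 49.6 CPM (SD, n = 2) after treatment. Its log2 fold change of 0.60 stayed under the fold threshold (adjusted p = 2.05e-05). IL33, an alarmin of the IL-1 family, fell from 109 and 142 counts to 16 and 17, or −2.91 on the log2 scale (standard error 0.346, edgeR adjusted p = 2.95e-05). IL7, IL24 and CSF2 fell by log2 fold changes of −1.56, −2.44 and −1.62, with adjusted p of 6.44e-04, 0.00827 and 0.0148. IL24 was at −3.16 without Erastin replicate 1. Without control replicate 1 the adjusted p was 0.102 for IL24 and 0.0667 for CSF2, and without Erastin replicate 1 it was 0.0521 for CSF2. TNF, LTB and MIF were listed at 0, with 94.8%, 90.5% and 89.9% of their words on alternate scaffolds, and the same limit holds for them.

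Among 19 receptors and decoys, 13 could be tested, with 3 called higher, 3 lower and a median log2 fold change of −0.06. CXCR1 had no count and CXCR2 had 1 count in all, in Erastin replicate 1, so the receptors of the neutrophil chemokines were not detected at this depth. The receptors of the IL-6 family moved in different directions. IL6R, the IL-6 binding subunit, rose from 309 and 385 counts to 1253 and 1163, or 1.81 on the log2 scale (standard error 0.131, edgeR adjusted p = 4.64e-07). IL11RA fell from 225 and 219 counts to 115 and 96, a log2 fold change of −1.06 (adjusted p = 0.00164) that was −0.90 without Erastin replicate 2. LIFR changed by −0.64 and the shared subunit IL6ST by 0.31, both under the fold threshold (adjusted p = 2.55e-05 and 0.00253).

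The antagonists of the IL-1 family were split. IL1RN, the secreted blocker of IL1R1, fell from 430 and 345 counts to 101 and 114, or −1.84 on the log2 scale (standard error 0.192, edgeR adjusted p = 1.02e-05). IL36RN, the blocker of the IL-36 receptor, rose from 1283 and 1499 counts to 3889 and 4294, a log2 fold change of 1.56 (adjusted p = 3.79e-08). IL1R1 itself changed by 0.42 (adjusted p = 0.00187) and IL1RAP, its accessory chain, by 0.26 (adjusted p = 0.129). ACKR3, a scavenging chemokine receptor, rose from 31 and 68 counts to 153 and 195, or 1.82 on the log2 scale (edgeR adjusted p = 8.94e-04). Its change was 2.47 without control replicate 2 and 1.37 without control replicate 1. SIGIRR, a brake on IL-1 signalling, fell by 1.02 (adjusted p = 0.0136), but by 0.58 without control replicate 1 (adjusted p = 0.186), and by 0.96 without Erastin replicate 2, and its control libraries had 199 and 117 counts.

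Of 24 genes for IL-1 processing and signal transduction, 21 could be tested, with none called higher, 2 lower and a median of 0.11. A further 13 passed the adjusted p alone, beside 5259 of all 16751 fitted genes. CASP1, the protease that matures IL-1β, had 63 and 79 counts against 16 and 32, a log2 fold change of −1.56 (adjusted p = 0.00917). GSDMD, a pore-forming protein, fell by 1.08 (adjusted p = 0.0135), but by 0.78 without control replicate 1 by 0.60 without Erastin replicate 2 (adjusted p = 0.0628) and by 1.78 without Erastin replicate 1, and 83.8% of its words lie on alternate scaffolds.

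Of 16 genes for JAK-STAT3 transduction and feedback, 14 could be tested, with none called higher and 3 lower, all of them induced by STAT factors in many cells. SOCS3, the feedback inhibitor of IL6ST signalling, fell from 2708 and 2590 counts to 1265 and 1351, or −1.01 on the log2 scale (standard error 0.0773, edgeR adjusted p = 7.57e-07) that was −0.97 without control replicate 1. SOCS1 fell by 1.38 (adjusted p = 7.84e-04) and the kinase gene PIM1 by 1.61 (adjusted p = 1.60e-05). STAT3 changed by 0.28, under the fold threshold (adjusted p = 0.0127). The median of this list was −0.02.

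Among 23 transcription factor genes that act on cytokine promoters, 21 could be tested, with 4 called higher, 3 lower and a median of 0.19. ATF3, ATF4, DDIT3 and CEBPG, factors of the integrated stress response, rose by log2 fold changes of 2.25, 2.02, 1.40 and 1.25, with adjusted p of 1.01e-09, 2.09e-09, 1.55e-06 and 1.60e-07. Of the words of ATF4, 57.4% recur elsewhere on the primary chromosomes. FOS and FOSB, subunits of AP-1, fell by 2.72 and 1.74 (adjusted p = 1.54e-09 and 5.59e-06), FOS from 3161 and 3228 counts to 514 and 452. The other FOS and JUN genes of the list stayed under the fold threshold. JUN and JUND changed by 0.19 and 0.59 (edgeR adjusted p = 0.0333 and 9.19e-05). JUNB, FOSL1 and FOSL2 changed by −0.38, −0.28 and −0.38 (edgeR adjusted p = 0.0121, 0.00494 and 0.00153). HIF1A was also called lower. The NF-κB subunits did not move one way. RELA and NFKB1 changed by 0.62 and 0.54 (adjusted p = 9.80e-05 and 0.00156) and NFKB2 by −0.64 (adjusted p = 6.80e-05), all under the fold threshold, while RELB and REL had values of 0.21 and 0.0015 (adjusted p = 0.225 and 0.997). BCL3, a partner of NF-κB, changed by −0.69 (adjusted p = 7.70e-05) and CEBPB by 0.25 (adjusted p = 0.0195). NFKBIZ had 1749 and 1866 counts against 3223 and 3418, a log2 fold change of 0.88 (edgeR adjusted p = 1.22e-06), also under the fold threshold.

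Of 16 factors of message decay and stability, some of which bind AU-rich elements, all could be tested. The list had 1 called higher, 1 called lower and a median of −0.11. ZFP36L1, which promotes decay of messages with AU-rich elements, fell from 20765 and 20131 counts to 7614 and 8934. Its log2 fold change was −1.30 (standard error 0.0721, edgeR adjusted p = 5.19e-08). ARID5A, which stabilizes IL6 messages, rose from 237 and 175 counts to 459 and 404, a log2 fold change of 1.07 (adjusted p = 5.24e-04) that was 0.85 without control replicate 2 and 0.94 without Erastin replicate 1. ZFP36 had 898 and 834 counts against 636 and 781, a log2 fold change of −0.29 (adjusted p = 0.0665). Beside 5259 of all 16751 fitted genes, a further 11 genes of this list passed the adjusted p alone, with changes in both directions. Among them RC3H1, RC3H2 and ZC3H12A changed by 0.92, 0.79 and 0.52 (edgeR adjusted p = 4.45e-05, 1.86e-06 and 1.61e-04). ELAVL1 changed by −0.35 (edgeR adjusted p = 0.0014).

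**Figure D5:**
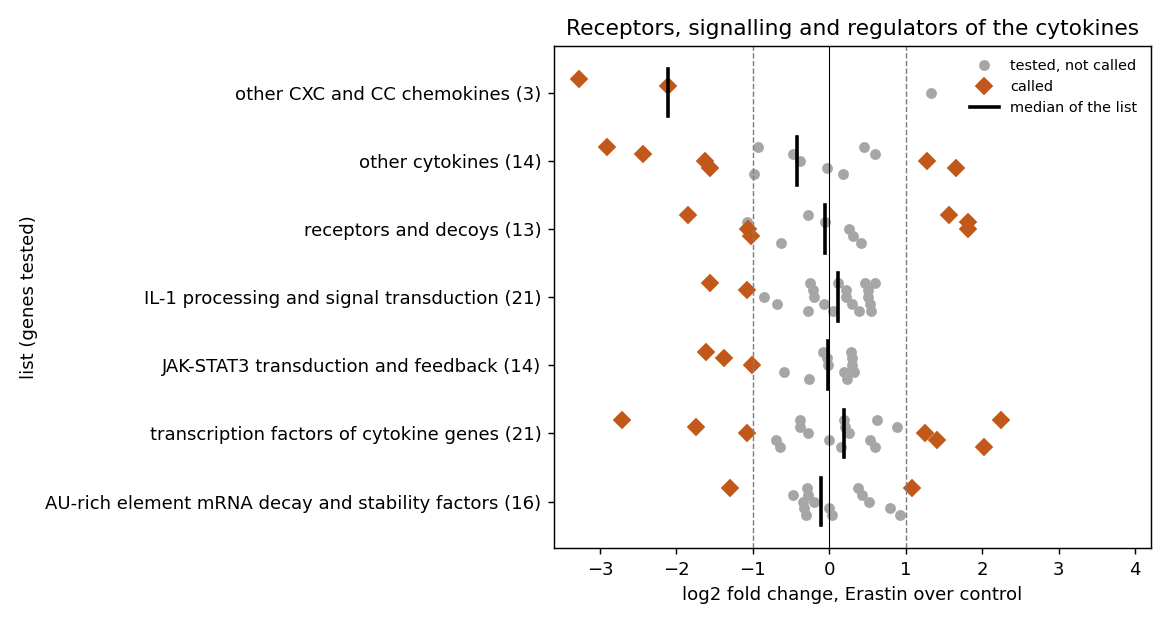
Log2 fold change, Erastin over control, of the 102 tested genes in the 7 lists, with called genes as orange diamonds, the others as grey points, the median of each list as a black bar and dashed lines at 1 and −1. Called genes lie on both sides in the lists of cytokines, receptors, transcription factors and message decay and stability factors, and below −1 in the other 3 lists.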

How the data were processed

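The authors sequenced RNA of U87MG cells in 4 libraries and deposited raw counts of reads per gene. Per the file headers, featureCounts 2.0.3 was run on GRCh38 genes of Ensembl release 90, unstranded, after alignment with Hisat2, whose version is 2.1.0 in the submitters' processing notes. The notes give featureCounts 2.0.4 and the methods htseq-count. The deposited values were also checked for the decimals of estimated counts in control replicate 1, where 0 values had any. Reads of a pair were counted separately, and between 69.1% and 70.1% of the counts from 2 to 20 were even, so precision is lower than the totals imply. Reads matching several places or genes were not counted. The labels do not say how the biological replicates were separated, so p-values measure the spread between these libraries. In edgeR this spread was partly borrowed from other genes, with 9.48 prior degrees of freedom.

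Symbols were joined by Ensembl identifier for 57532 of 58302 genes. In R 4.3.3, edgeR 4.0.16 with filterByExpr (minimum count 10), TMM and the quasi-likelihood test compared 2 libraries with 2, with Benjamini-Hochberg adjustment over 16751 genes. The biological coefficient of variation was 10.3%. Standard errors of edgeR log2 fold changes were derived as their size divided by the square root of the test's F statistic. An exact permutation test of this design cannot give a two-sided p below 0.333. CPM used the TMM library sizes, and FPKM divided CPM by the exon length in the table. A count of 0 was taken to allow 3 counts. Zero counts and intervals cover counting error only.

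The 10 genes and the 7 lists were chosen with earlier results of these data known, the lists from general knowledge. All 10 genes were named, with list genes that were called and had a mean of at least 1 CPM (values for the 6 largest changes per list) and, whatever their change, 9 receptor and antagonist genes, the neighbours of CXCL8, STAT3, SOCS3, RELA, NFKB1, CEBPB and ZFP36. CCL26, CSF2, CSF3, IL24, NFKB2, RELB, REL, BCL3, the genes listed at 0 beyond these, and the search of message tails were chosen after their values were seen. The same holds for NFKBIZ, JUN, JUNB, JUND, FOSL1, FOSL2, RC3H1, RC3H2, ZC3H12A and ELAVL1. Promoters came from RefSeq (GRCh38.p14), and transcripts from GENCODE release 44, by the canonical transcript. The fits were tested on simulated data. Alternatives were DESeq2 1.42.0, RLE factors, library totals, counts halved to pairs, the replicate block, every gene with a count kept, a minimum of 10 counts required in all libraries, and each library left out. Another lymphocyte marker on the list is not reported here. ChIP-seq and HiChIP samples were not analysed here.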

Additional observations from a re-analysis of the deposited data

How the results depend on the processing

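The log2 fold changes of the 10 genes kept their sign under every alternative that could fit them. Scaling by library totals gave 2.70 for CXCL8. CXCL8, CXCL2, CXCL3, IL6, IL11, LIF and IL1A had log2 fold changes above 1 in every fit. All fits reuse the same 4 libraries, with which the genes were chosen, so this adds no support. The count of the 10 genes called lower was 1 in the reported fit and 0 with DESeq2 and with at least 10 counts in every library, where CXCL1, CXCL5 and, of the lists, CXCL14 and IL24 were not fitted, and between 0 and 1 with each library left out in turn. CXCL1 kept its call only with RLE factors and library totals. The labels number the replicates without naming a pairing, and deviations of same-numbered libraries had a correlation of 0.0203 across genes. With the replicate block, 1039 genes were called higher and 1568 lower, 7 of the 10 genes higher and 1 lower, and 10 and 17 of the list genes. Over all genes, DESeq2 called 896 higher and 1399 lower. Of the list genes, SOCS3 and SIGIRR were −0.96 and −0.97 with library totals, and CSF2 had an adjusted p of 0.0547 with DESeq2. Halving counts to pairs called 968 genes higher and 1510 lower. With 1 library left in a group, that library was assumed to vary like the others.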

Other observations

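Likeness to CXCL8 was measured as the distance between log2 CPM values centred over the 4 libraries, among the 9507 genes whose mean reached 10 CPM. The 5 nearest genes were PAPPA2, DIRAS2, KCP, NUPR1 and CHAC1, at distances between 0.0825 and 0.175. PAPPA2, a protease of insulin-like growth factor binding proteins, had 10.1 CPM in control cells and 61.5 CPM in Erastin-treated cells, and NUPR1, a stress-induced chromatin protein, 47.4 and 271 CPM. The nearest to IL6 were COQ10A, an unnamed gene (ENSG00000264112), GREB1, ANKRA2 and RNF146, at distances between 0.0558 and 0.118. With 2 libraries in each group, this measure reflects the size of the difference and the agreement of the replicates.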
